A study of Bos taurus with 34 samples.

Results

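The predicted noncoding transcripts described here are the 200 most abundant rows of a bovine read count table whose names carry the RefSeq prefix XR, out of 7507 such rows and 38568 rows in all. They were chosen on measured values: counts were divided by the library total and multiplied by 1000000 (CPM), averaged over 34 libraries, and ranked. Their levels are therefore a description, and differences between sites, sides and animals were tested. A member that is high in 1 organ or animal alone can owe its place to it, and its difference is then not independent of the choice, so counts are also given for the members that reach 14.4 CPM, the lowest member mean, in each arm of a comparison. The tissue was the inner lining of the tract of 5 Holstein heifers that had never calved, synchronised with a 5-day CIDR-Synch protocol and slaughtered on day 2 after ovulation. The labels give ampulla (a segment of the oviduct, lined by endosalpinx), upper horn and mid horn of both sides, ipsilateral or contralateral to the ovulation, and 1 uterine body per heifer, which makes 7 groups of 5 libraries, except the ipsilateral upper horn with 4, since that of heifer 11110 was not analysed here. All groups came from the same 5 animals, which had all been synchronised, so the opposite side of a heifer served as its reference, and p-values measure the spread between libraries that is left after site and heifer means, over 5 animals.

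A noncoding transcript is an RNA that is not translated into protein. RefSeq gives the XR prefix to noncoding transcript models predicted by its annotation pipeline, which covers long noncoding RNA (lncRNA) genes, transcribed pseudogenes, untranslated variants of protein-coding genes and structural RNAs such as ribosomal RNA. LncRNAs are often restricted to a tissue, and some lie beside developmental regulators such as the HOX genes, which pattern the reproductive tract from oviduct to vagina. The role of most predicted models is unknown, and they are named below by their transcript accession or by the gene symbol that carries it.

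Through accession numbers, 68 of the 200 members matched 67 genes in RefSeq's table for ARS-UCD2.0, 3 of them with the same accession version, and 132 matched none. The matched rows comprised 48 transcripts of lncRNA genes, 10 pseudogene transcripts, 8 noncoding transcripts of protein-coding genes, 1 ribosomal RNA and 1 other small RNA. Only 11 matched rows carried a symbol other than a LOC number, and XIST carried 2 rows. All 200 passed the filter on low counts and were tested together with 17041 other rows, 17241 in all. A count was present in every library for 191 members, and 9 had 0 counts in at least 1 library.

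The members held 1.77% of all counts and 76.1% of the counts of XR rows. Between 0.781% and 3.95% of a library's counts fell on them, and the median was 1.75% for ampulla and 1.56% for endometrium (all uterine) libraries. Levels were very unequal: 2 members averaged over 1000 CPM, 18 over 100 CPM and 151 under 50 CPM, and the 12 most abundant held 64.1% of all member counts. At the border of the list stood LOC107133117 at 14.5, XR_003030353.1 at 14.5 and XR_003032558.1 at 14.4 CPM, followed outside it by XR_003034027.1 at 14.4, XR_003031005.1 at 14.3 and LOC104974796 at 14.3 CPM. Transcript lengths were not used, so CPM of different transcripts do not rank their expression.

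**Figure D1:**
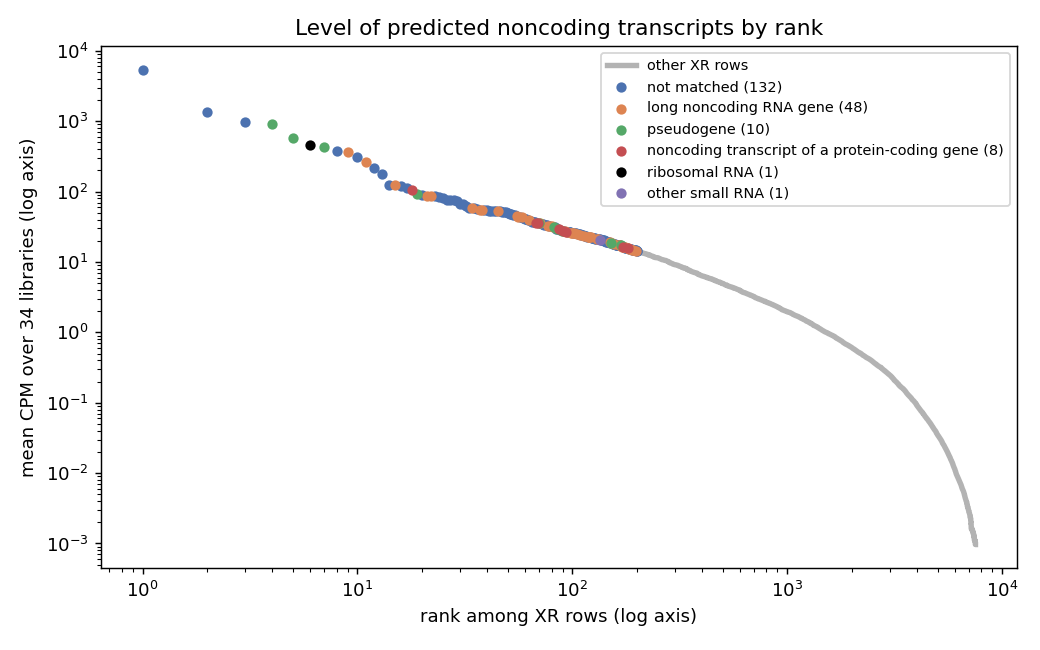
Mean CPM over 34 libraries (log axis) against the rank among all XR rows (log axis); coloured points are the 200 members by class and the grey line the other XR rows. The highest member stands at 5405 CPM and the lowest at 14.4 CPM, where the curve runs on without a step.

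Library totals lay between 11619486 and 30412782 counts, and 18S ribosomal RNA, which is not a member, took 0.634% to 23.5% of them. Cell type markers differed strongly between the organs. In the ampulla all 9 tested ciliated cell markers and all 4 tested markers of secretory oviduct cells were higher than in the endometrium, and all 7 stromal, 5 smooth muscle, 5 endothelial and 4 leukocyte markers tested were lower. Of 7 epithelial markers 5 were higher and 1 lower, of 4 mesothelial markers 2 were higher and 1 lower, and of 2 erythroid markers 1 was higher and 1 lower. The summed level of the stromal list was 25.9 to 130 CPM in ampulla libraries and 27919 to 112342 CPM in uterine libraries, and DCN, LUM and PDGFRA had no count in any ampulla library. So the ciliated and stromal sums separated the organs in every library, while the secretory oviduct sums overlapped through 1 uterine library described below. No list was specific to endometrium or to a uterine site, so those labels were not checked by markers. Each comparison of ampulla and endometrium below is also a comparison of an epithelial sample with one that holds stroma. In bulk RNA, fewer cells of a type and less RNA per cell cannot be told apart, and the part of cell composition in each difference was not tested.

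The members at the top of the list were widespread. XR_003033235.1, matched to no gene, averaged 5405 CPM and held 28.7% of all member counts. It reached 659 to 23963 CPM in ampulla libraries (median 4249) and 1066 to 15379 CPM in uterine libraries (median 3573), so the organs overlapped over most of their range. Its log2 fold change between ampulla and endometrium was 0.27 ± 0.25 (SE; adjusted p = 0.35, edgeR quasi-likelihood test with Benjamini-Hochberg adjustment, as for each adjusted p below).

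XR_003032756.1, second with 1338 CPM, stood at 1093 to 2566 CPM in the ampulla (median 1955) and 529 to 2189 CPM in the uterus (median 1017), and was higher in the ampulla of 5 of 5 heifers on both plain and TMM-scaled CPM (CPM divided by a normalisation factor per library), by 1.19 ± 0.17 (adjusted p = 3.33e-07). XR_003031392.1, rank 10 with 306 CPM, also rose in the ampulla of all 5 heifers, with 482 ± 89.98 CPM (SD over 5 heifers) against 239 ± 37.5 CPM and a log2 difference of 1.30 ± 0.12 (adjusted p = 2.53e-11). Smaller rises passed the test for XR_003037317.1 (0.69 ± 0.17), for the lncRNA gene LOC101904536 (0.71 ± 0.16) and for the pseudogene LOC782776 (0.84 ± 0.18). These 3 were higher in 5 of 5 heifers on TMM-scaled CPM, but in 4, 4 and 3 of 5 on plain CPM. Fold changes are relative to TMM scaling factors, which differ between the organs, and need not equal the ratio of mean CPM.

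Among the remaining abundant members, the pseudogene LOC104975663 was lower in the ampulla by a small margin, -0.34 ± 0.14 (adjusted p = 0.030), and the call was lost without heifer 10882 (-0.21, adjusted p = 0.208) and without the heifer term (adjusted p = 0.0631). The ribosomal RNA model LOC112444653 averaged 456 CPM and ranged from 133 to 1593 CPM over all libraries, with overlap between organs and a log2 difference of 0.34 ± 0.29 (adjusted p = 0.296). XR_236092.4 and XR_003034357.1, at 383 and 214 CPM, had log2 differences of -0.07 ± 0.13 and -0.08 ± 0.13 that did not pass the test. The pseudogene LOC112444531 was higher in the ampulla by 0.36 ± 0.12 (adjusted p = 0.010), a call lost without heifer 10872 (adjusted p = 0.0704) or 11110 (0.117), without the filter (0.0755) and without the heifer term (0.248).

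A list of 71 named noncoding genes could be compared by symbol with the 68 matched members alone. XIST, the RNA that coats and silences the inactive X chromosome in female mammals, was the one gene found among them. Its main row, XR_001495594.2, ranked ninth with 368 CPM. It ran from 21.4 to 499.7 CPM in the ampulla (median 178) and from 15.9 to 901 CPM in the uterus (median 461), a 56.6-fold spread over libraries of 5 female animals, and the organs overlapped. The ampulla was lower in 5 of 5 heifers, by -0.85 ± 0.38 on the log2 scale (adjusted p = 0.0496). The second row, XR_001495596.2, averaged 32.2 CPM and gave -0.60 ± 0.24 (adjusted p = 0.0312). Both calls were marginal: for the main row the adjusted p was 0.108 without heifer 10882, 0.0553 without 11033, 0.0517 without 11070 and 0.0904 without 11110, and for the second row 0.0963 without 10882 and 0.123 without 11033. How reads shared by the 2 rows were counted is not given in the sources used here.

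Of the other listed noncoding genes, 11 had a row under their symbol, all with curated accessions and therefore outside the list of members. Over the 12 genes with XIST included, 2 were higher and 8 lower in the ampulla, with a median log2 difference of -1.07. H19 and MEG3, imprinted lncRNAs that are abundant in mesenchymal tissue, showed the widest gaps, with log2 differences of -11.78 ± 0.47 and -11.94 ± 0.77. SNHG4, a host gene of small nucleolar RNAs, was higher in the ampulla by 1.71 ± 0.15.

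Between ampulla and endometrium, 148 of the 200 members passed the adjusted threshold of 0.05, against 64.9% of all rows tested and 71.8% of the other 4527 rows with a mean at or above that of the lowest member. More members were higher than lower in the ampulla: 95 were higher, where 29.4% of all rows were, and 53 were lower, where 35.6% of all rows were. Their median log2 difference was 0.25, against -0.18 over all rows tested. With median-ratio size factors in place of TMM, 87 were higher and 61 lower, with medians of 0.16 and -0.27. A called change of at least 2-fold was seen in 48 members that were higher, as in 18.6% of all rows, and in 27 that were lower, as in 28.2% of all rows. All ampulla libraries lay above all uterine ones for 16 members, as for 3.72% of all rows, and below them for 17, as for 6.72% of all rows.

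In 73 members the mean of the ampulla or of the uterine libraries alone was under 14.4 CPM. Of the other 127, 86 were called, or 67.7%, against 67.2% of the 3664 other rows that reached that level in both organs. Their share of calls was thus near that of rows of like level. Of the 86, 65 were higher and 21 lower in the ampulla, with a median log2 difference of 0.36 over the 127.

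**Figure D2:**
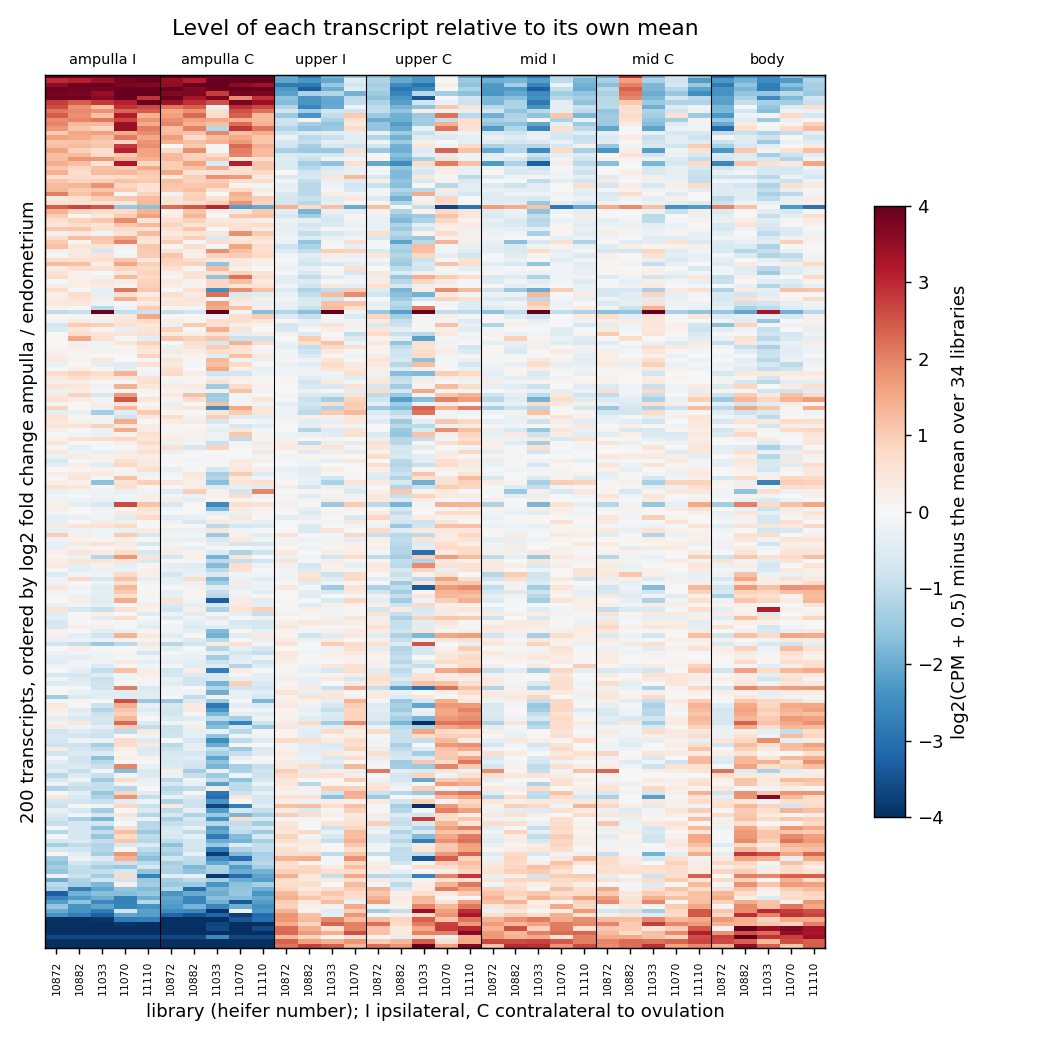
Log2(CPM + 0.5) of each of the 200 members minus its mean over 34 libraries, with rows ordered by the log2 fold change of ampulla against endometrium and columns by site and heifer number. The 2 ampulla groups on the left oppose the 5 uterine groups at the top and the bottom of the map; single dark rows that recur in each block are transcripts that differed between heifers.

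By class, 29 of the 48 lncRNA rows were higher in the ampulla and 12 lower, with a median log2 difference of 0.64. Over all rows tested 29.4% were higher and 35.6% lower, with a median of -0.18. The class counts include members that averaged under 14.4 CPM in an organ. Of the 10 pseudogene rows 7 were higher and 1 lower, of the 8 noncoding variants of coding genes 2 were higher and 2 lower, and of the 132 unmatched rows 57 were higher and 38 lower (median 0.17). The pseudogene LOC100847554, which neighbours the growth-restraining gene BTG2, had 34.8 ± 2.91 CPM in ampulla and 9.63 ± 0.99 CPM in uterine samples (log2 difference 2.20 ± 0.15). Among the variants of coding genes, the row under the symbol of the chemokine receptor CCR8 was higher by 1.75 ± 0.13 and that of the chloride transporter CLCN6 lower by -1.26 ± 0.16. Only FAM174B had a tested coding row beside its noncoding one, with differences of -0.04 ± 0.12 for the coding and 0.06 ± 0.22 for the noncoding row, neither of which passed the test.

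Some members were high in the ampulla and near 0 in most uterine libraries. A called change of at least 16-fold was seen in 7 members that were higher in the ampulla, as in 2.51% of all rows, and in 8 that were lower, as in 6.6% of all rows. The 8 members at each end are described here. Since one organ averaged under 14.4 CPM in all 16, their differences are given as a description. LOC101906512 held 89.8 to 161 CPM in the 10 ampulla libraries (median 121) and 0.221 to 48.8 CPM in the 24 uterine ones (median 1.19), a log2 difference of 6.83 ± 0.47. LOC107131768, a neighbour of the transcription factor gene FOXQ1, held 60.9 to 122 CPM and 0.258 to 22.7 CPM (6.23 ± 0.43). LOC107133117, whose neighbour is the chromatin remodeller gene CHD7, held 26.1 to 83.7 CPM and 0.102 to 9.96 CPM (6.56 ± 0.42). In all 3 lncRNA genes the organs were fully separate.

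The highest of the 8 in mean CPM was XR_236730.3, rank 17, with 267 to 507 CPM in the ampulla (median 341) and 1.60 to 108 CPM in the uterus (median 4.76; log2 difference 6.14 ± 0.42). XR_003037210.1 (6.13 ± 0.42), LOC104975111 (4.92 ± 0.27) and LOC104968946 (3.36 ± 0.23) followed the same direction in 5 of 5 heifers. XR_001501509.2 had 18.9 to 128 CPM in the ampulla and up to 19.4 CPM in the uterus, so that its organs overlapped, as did those of LOC104968946.

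A single uterine library carried the highest uterine value of 7 of these 8 transcripts: the contralateral mid horn of heifer 10882, with 108 CPM of XR_236730.3, 48.8 CPM of LOC101906512 and 19.4 CPM of XR_001501509.2. In the other 23 uterine libraries the highest values were 20.2, 4.36 and 4.58 CPM. That library also held 814 CPM of the summed secretory oviduct markers, against at most 67.4 CPM in the other 23. Its stromal sum of 40093 CPM was within their range, as was its ciliated sum of 1557 CPM (290 to 2022 CPM in the others). Without it and 2 further libraries that stood apart (contralateral upper horn of 11033, contralateral ampulla of 11070) the differences were slightly larger, 7.24 for LOC101906512 and 6.46 for XR_236730.3, and 146 members were called.

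Other members were high in the uterus and at or near 0 in the ampulla. XR_001500450.2, rank 20, had 46.6 to 404 CPM in the 24 uterine libraries (median 102) and not a single count in the 10 ampulla libraries, against 59821 counts in the uterus. Setting the ampulla at 3 counts over all its libraries, a limit that covers counting error only, the endometrium was at least 8066-fold higher. XR_806181.3 had 25.4 to 107 CPM in the uterus (median 79.4) and 0 to 0.268 CPM in the ampulla, a fitted log2 difference of -10.67 ± 0.45. These transcripts separated the organs in every library.

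The other 6 of the 8 members with the lowest fold changes also separated the organs in every library, and none exceeded 1.10 CPM in the ampulla. XR_003034114.1 (-9.03 ± 0.32), XR_003034291.1 (-7.21 ± 0.29) and XR_003030915.1 (-5.40 ± 0.36) matched no gene. Of the lncRNA genes, LOC101907241 differed by -9.35 ± 0.55, LOC100848883 by -7.57 ± 0.50 and LOC100847357 by -6.10 ± 0.39. Stromal, endothelial and smooth muscle markers showed the same direction, as given above. Their summed levels in ampulla libraries were 25.9 to 130, 1.03 to 3.36 and 7.90 to 19.1 CPM. In uterine libraries these sums were at least 27919, 315 and 241 CPM. The part of these markers in the differences of the transcripts was not tested.

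**Figure D3:**
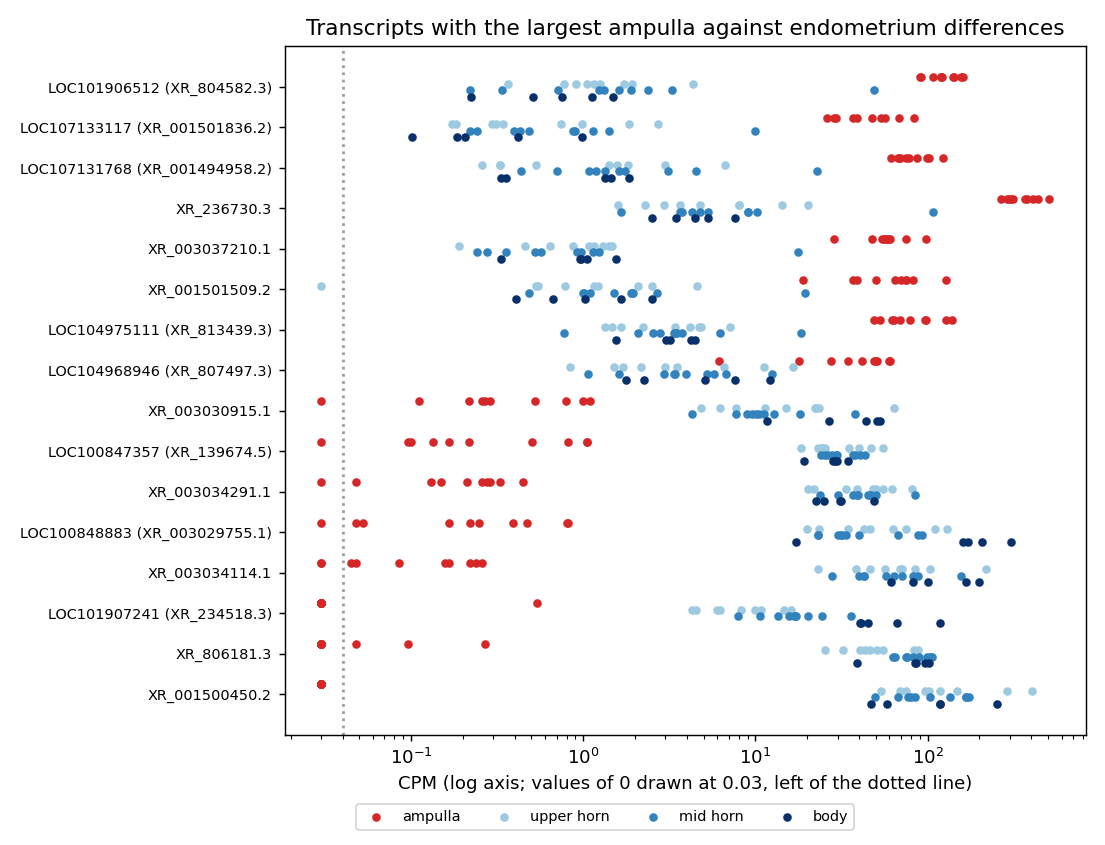
CPM (log axis) in each library of the 8 members with the highest and the 8 with the lowest log2 fold change of ampulla against endometrium; red points are the 10 ampulla libraries and blue points the 24 uterine libraries by region, with values of 0 drawn left of the dotted line. The single mid horn point far to the right in 7 of the upper 8 rows is the contralateral library of heifer 10882, for example at 108 CPM of XR_236730.3.

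Several lncRNA members neighbour protein-coding genes with known roles in tract development, in the gene order of ARS-UCD2.0. These pairs were chosen after their values were seen. LOC101907241 lies between HOXC11 and HOXC12, homeobox genes of posterior identity, the interval that holds the lncRNA HOTAIR in human; the table gives the bovine gene no such name. HOXC11 had 0.0143 ± 0.0320 CPM in ampulla and 2.28 ± 0.740 CPM in uterine samples (-6.95 ± 0.52), the direction of LOC101907241, and HOXC12 was not among the rows tested.

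A uterine pair was formed by LOC101904396, 2.20 ± 0.444 against 28.1 ± 10.3 CPM (-3.17 ± 0.26), and its neighbour FOXF2, a transcription factor of mesenchyme (-6.52 ± 0.30). LOC100847357 was likewise low in the ampulla together with its neighbour TMEM200C (-7.67 ± 0.43), which codes for a membrane protein. FOXQ1, the other neighbour of LOC101904396, went the opposite way (0.53 ± 0.14, adjusted p = 0.00128).

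Ampulla-high pairs were LOC112441650 with WT1, a transcription factor of the coelomic epithelium (2.86 ± 0.22 and 2.71 ± 0.41), and LOC104971307 with CATIP, a gene linked to ciliogenesis, which it overlaps (2.13 ± 0.26 and 3.14 ± 0.21). Other neighbours went the opposite way: EIF3M, a translation factor gene beside LOC112441650, differed by -1.35 ± 0.41, and SLC11A1, a metal ion transporter gene beside LOC104971307, by -2.87 ± 0.39. Each value is that of a single transcript row, and some levels were low. In ampulla against uterine samples WT1 had 1.11 ± 0.509 against 0.204 ± 0.0722 CPM and EIF3M 0.246 ± 0.236 against 0.718 ± 0.476 CPM. SLC11A1 had 0.383 ± 0.254 against 3.78 ± 3.22 CPM. PNKD, also beside LOC104971307, did not pass the test (0.60 ± 0.35). The summed mesothelial markers stood at 470 to 925 CPM there and at 27.4 to 458 CPM in the uterus, and their part in the WT1 pair was not tested. Of the 48 lncRNA members 40 had at least 1 tested coding neighbour, which gave 63 pairs. In 40 of these pairs, or 63.5%, both transcripts were called, 24 of them (60%) in the same and 16 in the opposite direction. Over 1224 such pairs of 743 other tested lncRNA rows, both were called in 49.9%, and 64.3% of those went the same way. The members' pairs thus went the same way at a share near that of other lncRNA rows. Strand of counting is not given, so reads of overlapping genes cannot be told apart.

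Along the uterus, LOC101907241 was higher in the body than in the horns. It stood at 6.19, 8.28, 10.8 and 14.7 CPM in the ipsilateral and 4.28, 4.53, 5.97, 9.98 and 16.1 CPM in the contralateral upper horn. The mid horn held 7.95, 15.6, 16.8, 20.2 and 24.4 CPM on the ipsilateral and 10.7, 13.6, 17.0, 17.1 and 36.1 CPM on the contralateral side, and the body 40.7, 40.9, 44.9, 66.1 and 118 CPM. So every body library lay above every horn library, while upper and mid horn overlapped.

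LOC101907241 was the only member called between upper horn and body, where 0.0232% of all rows were: it was lower in the upper horn by -2.56 ± 0.39 (adjusted p = 0.00223). Its mean of 16.8 CPM rests on the body libraries, so this call is not independent of its place in the list. The call was lost without heifer 10882 (-2.36, adjusted p = 0.204) and without heifer 11070 (-2.49, adjusted p = 0.0759), although the direction held. Between upper and mid horn no member was called by edgeR or by DESeq2, where edgeR called 0.0174% of all rows; 14 members had an unadjusted p under 0.05, and LOC101907241 differed by -0.90 ± 0.33 (adjusted p = 0.787). With no filter on low counts, 6 members were called between upper and mid horn and 9 between upper horn and body. These 2 counts are given without the share of all rows called in that fit, so they do not show a trait of the members.

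Between mid horn and body, 25 members were called, or 12.5%, against 4.45% of all rows and 2.54% of the other rows at or above the lowest member mean. Of these, 24 were lower in the mid horn, a direction called in 3.92% of all rows, and 19 of the 24 at least 2-fold. This count rested on the fit and on single animals: it was 0 without the heifer term, 0 without heifer 10882, 0 without 11070 and 1 without 11033, but 44 without 10872 and 53 with DESeq2. Of the 148 members that reached 14.4 CPM in both mid horn and body, 18 were called, or 12.2%, against 2.47% of other such rows. The lowest adjusted p was 0.0408, shared by most of the 25.

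The largest change was that of XR_003033236.1, with 20.8, 47.7, 66.8, 97.2 and 357 CPM in the body and 5.67 to 46.5 CPM in the mid horn (-2.65 ± 0.66); the value of 357 CPM came from heifer 11033, and without that heifer the difference was -0.79 (adjusted p = 0.376). LOC112449102, which overlaps GAS6, a ligand of TAM receptor kinases, had 7.31, 28.8, 47.8, 57.0 and 70.4 CPM in the body (-2.30 ± 0.50). LOC100848883, between PRDM16 and ACTRT2, had 17.3, 162, 172, 206 and 305 CPM in the body and 23.1 to 93.0 CPM in the mid horn (-1.69 ± 0.43). In all 3 the body library of heifer 10872 was the lowest body library. It lay within the range of the mid horn for the first 2 and below every mid horn library for LOC100848883.

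The single member called higher in the mid horn was the lncRNA gene LOC100847143, with 75.7 to 133 CPM there and 33.7, 53.5, 57.9, 63.8 and 84.4 CPM in the body (0.87 ± 0.23, adjusted p = 0.0408), which overlapped through the body library of heifer 11110. Of the cell type lists, 3 of 7 epithelial markers were called higher in the mid horn and 1 of 5 smooth muscle and 1 of 4 mesothelial markers lower. Whether cell composition plays a part in the body differences was not tested.

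XR_003033235.1 itself was among the 24, with 1448, 6704, 8556, 11515 and 15379 CPM in the body and 1072 to 11000 CPM in the mid horn (-1.31 ± 0.35). After group and heifer means were removed from log2 CPM, 21 of the other 199 members followed it over the 34 libraries with a Pearson r of at least 0.7, which is 10.6% of them. The same held for 1.44% of the 17041 other rows tested and for 0.641% of those at or above the lowest member mean. The closest was XR_001494249.2 with r = 0.85, followed by XR_001502298.2 with 0.84. These values are a description: the libraries share 5 animals and the set was defined after its values were seen.

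Summed over the 21 transcripts, the set ranged from 139 CPM in the contralateral ampulla of heifer 11033 to 1181 CPM in the ipsilateral ampulla of heifer 11070. XR_003033235.1 was also lowest and highest in these 2 libraries. Since the set was chosen to follow it over the same libraries, this match carries no further weight. Of the set with XR_003033235.1 included, 11 of 22 were called lower in mid horn than body, which is 45.8% of the 24 such members and 50% of the set. Against the whole organ contrast the set was mixed, with 7 higher and 6 lower in the ampulla. Over all rows tested 29.4% were called higher and 35.6% lower, so a mixed direction was not particular to the set. Over libraries, log2 CPM of XR_003033235.1 had r = -0.43 with the library total, -0.34 with the 18S share, 0.17 with the mitochondrial share and 0.30 with the number of rows detected, all on a log2 scale, and the part of these in its spread was not tested.

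**Figure D4:**
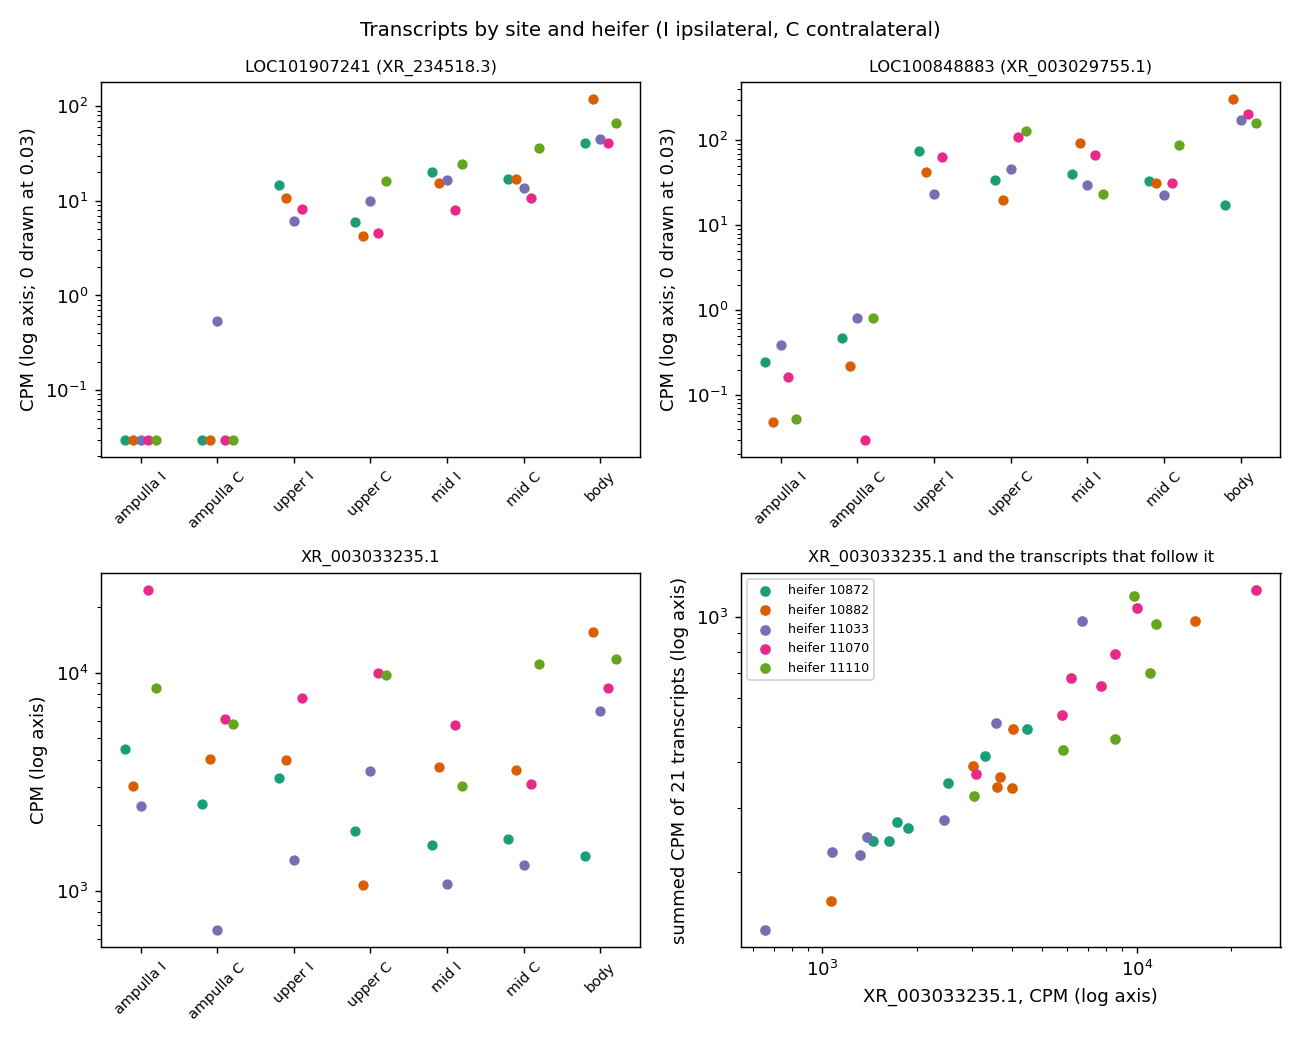
CPM (log axis) of LOC101907241, LOC100848883 and XR_003033235.1 in each library by site, and the summed CPM of the 21 transcripts that followed XR_003033235.1 against its own CPM; colours mark heifers. LOC101907241 lies above 40 CPM in all 5 body libraries, and the body library of heifer 10872 is the low one for LOC100848883 and XR_003033235.1.

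Differences between heifers were frequent. Over all sites 63 members, or 31.5%, differed between animals, against 15.1% of all rows and 18.1% of the other rows at or above the lowest member mean; the count was 36 without heifer 10872, 34 without heifer 11070 and 77 with DESeq2. Of the 174 members whose mean stayed at or above 14.4 CPM whichever heifer was left out, 50 were called, or 28.7%, against 17.8% of other such rows. The median share of the log2 CPM variance that went with heifer was 14.9%, and that with site group 41.1%. For 6 members heifer took over 50% of the variance. By class, the 63 were 48 of the 132 unmatched rows, 8 of the 48 lncRNA rows and 5 of the 10 pseudogene rows. The other 2 were among the 8 noncoding variants of coding genes.

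XR_804980.2 was present at high level in 1 animal. In the 7 libraries of heifer 11033 it held 76.3, 191, 222, 224, 227, 284 and 441 CPM, and in all libraries of the other 4 heifers 1.21 to 6.51 CPM, with medians from 2.15 to 3.46 CPM per heifer. The values did not overlap, and heifer took 95.1% of the variance. Its mean of 51.4 CPM, and thus its place in the list, came from that heifer, so the difference between animals is a description. The ampulla was higher by 0.88 ± 0.17 in the fit (adjusted p = 4.58e-05), in 5 of 5 heifers on TMM-scaled and 4 of 5 on plain CPM, and in heifer 11033 the contralateral upper horn was the highest library.

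The pseudogene LOC112444531, a neighbour of the mitochondrial carrier gene SLC25A6, showed the reverse. It held 56.6 to 154 CPM in heifer 11033 and 241 to 745 CPM in the others, with 389 to 518 CPM in 10872, 241 to 429 CPM in 10882, 529 to 745 CPM in 11070 and 590 to 713 CPM in 11110. Heifer took 82.7% of the variance (adjusted p = 3.53e-09). Here too heifer 11033 did not overlap any other animal.

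XR_083847.6 split the animals 3 to 2: it held 82.1 to 192 CPM in 10872, 33.7 to 229 CPM in 10882 and 18.1 to 290 CPM in 11033, but 2.38 to 12 CPM in 11070 and 4.08 to 10.96 CPM in 11110. Heifer took 84.2% of the variance (adjusted p = 1.17e-13), and the ampulla was higher in 5 of 5 heifers, by 1.54 ± 0.19. XR_235161.2 was high in heifer 10872, with a median of 103 CPM against 21.2 to 29.2 CPM in the others (adjusted p = 5.82e-05), and the ranges overlapped. XR_001494221.2 and XR_001495042.2, with 65.4% and 50.9% of their variance going with heifer, overlapped between animals as well.

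**Figure D5:**
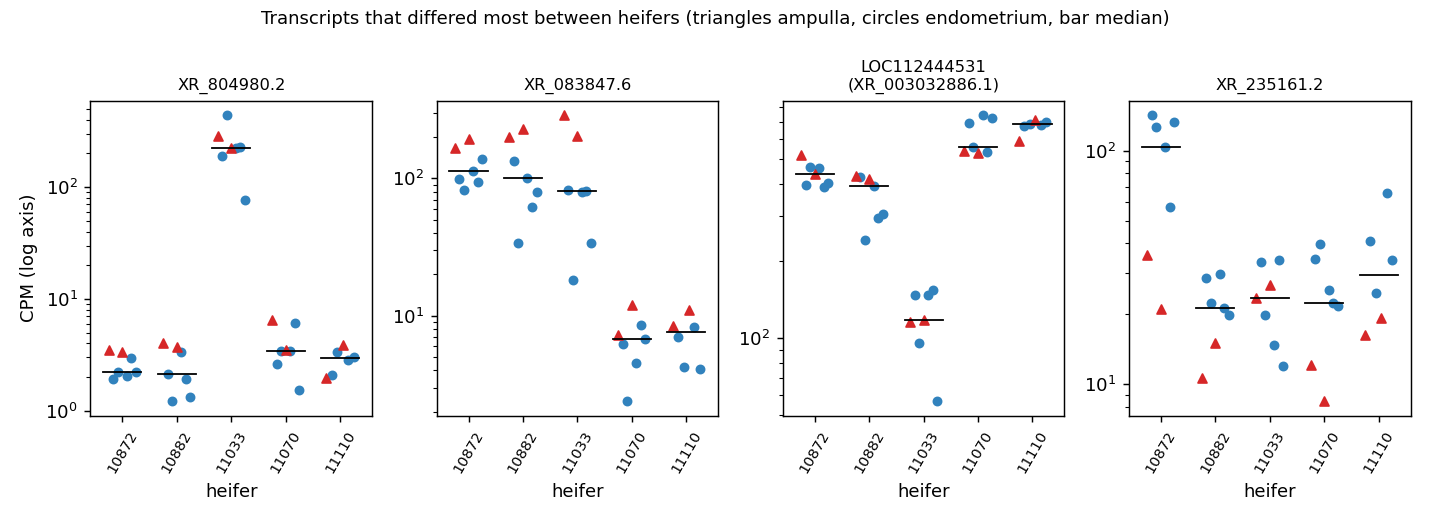
CPM (log axis) in each library of 4 members by heifer; triangles are ampulla and circles endometrium libraries, and bars the median of the heifer. XR_804980.2 is between 76.3 and 441 CPM in heifer 11033 and at most 6.51 CPM elsewhere, and LOC112444531 has its lowest 7 values in that heifer.

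With the filter on low counts, edgeR called no member between the ovulatory and the opposite side. In the ampulla, edgeR and DESeq2 each called 0 of the 200, with 22 members at an unadjusted p under 0.05, where edgeR called 0.0174% of all rows. In the upper horn both called 0 members, and edgeR called 0.0058% of all rows. Here 26 members and 1188 of all rows had an unadjusted p under 0.05. In the mid horn edgeR called 0 members and 0% of all rows, with 10 members and 513 of all rows at an unadjusted p under 0.05. DESeq2 called 2 members there, and its share over all rows is not given here. The difference between the side effect in the ampulla and that in the horns was called for 0 members by either tool. For that difference edgeR called 0% of all rows, and 19 members and 918 of all rows had an unadjusted p under 0.05. With no filter, edgeR called 6, 2 and 6 members by side in ampulla, upper horn and mid horn and 3 for the difference between side effects. The share of all rows called in that fit is not given here, so these counts do not show a trait of the members. With 4 or 5 heifers a group, a smaller side difference may not have been detectable.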

How the data were processed

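The authors deposited 1 table of whole-number read counts, not normalised, with 1 column for each of 34 libraries. Per the submitters' processing notes cutadapt, STAR 2.7.9a, HTSeq and SAMtools were used; for build, annotation release, strand setting and counting mode, the sources used here give nothing. Per the labels' protocols tissue was homogenised with beads, RNA was purified on columns, and a directional kit gave the libraries. Since rows are single transcripts, reads shared by overlapping models may be split or lost. CPM were computed here from column totals.

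Tests used edgeR 4.0.16 in R 4.3.3 on the counts: TMM scaling, filterByExpr, robust quasi-likelihood F tests, terms for group and heifer, all 34 libraries in 1 fit, and Benjamini-Hochberg adjustment over the 17241 rows kept within each of 9 contrasts. The endometrium weighs upper horn, mid horn and body equally. Libraries of a heifer were averaged first, so means ± SD have 1 value per heifer. The scripts were checked on simulated data. DESeq2 1.42.0 was an alternative, as were median-ratio size factors, no filter, no heifer term, leaving out each heifer, 3 libraries that stood apart, or 14 ribosomal RNA rows.

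The heifer number in the labels marks sites of 1 animal, which is the source of the pairing. Once group means were subtracted, 99 library pairs of 1 heifer had a median correlation of 0.25, and 396 pairs of different heifers and groups -0.0582. No 2 libraries of a group agreed within sampling noise (chi-square per row at least 44.8 over 66 pairs). Variance shares and correlations used log2(TMM-scaled CPM + 0.5).

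Members and lists were chosen with earlier results of these data known. Named were the 12 highest in mean CPM; the 8 highest and 8 lowest in ampulla against endometrium among called members that moved alike in 5 of 5 heifers on TMM-scaled CPM; up to 4 called per direction in the other contrasts; 6 called with the largest heifer share; 3 on each side of rank 200; XIST; and variants with a tested coding row. Others were named, and counts of members at or above the lowest member mean in every arm were added, after values were seen. Gene names come from the RefSeq table of ARS-UCD2.0, and neighbours and overlaps from the gene start and end positions in it. No sequences were used.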

Additional observations from a re-analysis of the deposited data

Results flagged for a closer look

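Each library of the 38 named members was compared with the other libraries of its site group, 263 groups in all. In 38 groups the highest or lowest value stood apart by Dixon's criterion, where chance gives about 1 in 20, or 13.15 groups; the groups share libraries, and transcripts that vary together are counted more than once.

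The contralateral mid horn of heifer 10882 stood apart for 7 transcripts that were high in the ampulla. It held 48.8 CPM of XR_804582.3 (LOC101906512), 9.96 of XR_001501836.2 (LOC107133117), 22.7 of XR_001494958.2 (LOC107131768), 108 of XR_236730.3, 17.7 of XR_003037210.1, 19.4 of XR_001501509.2 and 18.4 of XR_813439.3 (LOC104975111). The contralateral mid horn of heifer 11110 stood apart for 5 transcripts, with 11000 CPM (10999.6) of XR_003033235.1, 36.1 of XR_234518.3 (LOC101907241), 156 of XR_003034114.1, 88.4 of XR_003029755.1 (LOC100848883) and 38.0 of XR_003030915.1. The contralateral upper horn of the same animal held 219 CPM of XR_003034114.1.

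XR_804980.2 stood apart in all 7 libraries of heifer 11033, with 224 and 284 CPM in the ipsilateral and contralateral ampulla, 227 and 441 CPM in the upper horns, 222 and 191 CPM in the mid horns and 76.3 CPM in the body. XR_235161.2 stood apart in heifer 10872, with 126 CPM in the contralateral upper horn, 142 CPM in the contralateral mid horn and 133 CPM in the body.

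In heifer 11070 the ipsilateral ampulla held 23963 CPM of XR_003033235.1, 33.1 CPM of XR_003037599.1 (LOC112449102) and 48.7 CPM of XR_001495596.2 (XIST). Its ipsilateral upper horn held 1.85 CPM of XR_001501836.2 and 28.9 CPM of XR_001495042.2, its ipsilateral mid horn 1.14 CPM of XR_001501836.2, and its contralateral upper horn 4.36 CPM of XR_804582.3 and 6.68 CPM of XR_001494958.2.

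In heifer 11033 the ipsilateral upper horn held 443 CPM of XR_001495594.2 (XIST), the body 38.8 CPM of XR_806181.3 and 357 CPM of XR_003033236.1, and the contralateral ampulla 0.536 CPM of XR_234518.3 and 28.4 CPM of XR_003037210.1. The ipsilateral ampulla of heifer 10872 held 209 CPM of XR_814844.3 (LOC104975663), and that of heifer 10882 held 0.0479 CPM of XR_806181.3.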

How the results depend on the processing

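The count of members called between ampulla and endometrium was 148 as reported, 134 to 145 when each heifer was left out in turn, and 137 to 148 under the other alternatives. The pairing of sites by heifer mattered elsewhere: without the heifer block, 137 members were called between ampulla and endometrium, 0 between mid horn and body and 1 between upper horn and body, and 7 of the 36 single-transcript results lost their call. Between mid horn and body the count was 25 as reported, 35 with median-ratio size factors, 44 with no filter, 53 with DESeq2 and 0 to 44 when each heifer was left out; without the 3 libraries that stood apart it was 33. Between upper horn and body it was 0 or 1 when each heifer was left out, and 0 without 10882 or 11070. With no filter on low counts, 6 members were called between upper and mid horn, 9 between upper horn and body, 6, 2 and 6 by side in ampulla, upper horn and mid horn, and 3 for the difference between side effects; DESeq2 called 2 by side in the mid horn. Shares over all rows under these alternatives are not given here, so the counts cannot be set against them. Differences between heifers numbered 63 as reported, 34 to 52 when each heifer was left out, and 55 to 77 otherwise.

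Results that changed sign had not passed the test: when each heifer was left out, the log2 difference of XR_236092.4 ran from -0.197 to 0.0186 (above 0 without 10872), that of XR_003034357.1 from -0.183 to 0.0361 (above 0 without 11033), and that of the noncoding FAM174B row XR_003031391.1 from -0.0992 to 0.173 (below 0 without 10872, 11070 or 11110). The FAM174B row was also at -0.0399 with median-ratio size factors, -0.0400 with DESeq2, -0.00918 with no filter and -0.0829 without the 3 libraries. The cause of these changes was not tested. Of the 200 members, 194 remained when ranked by TMM-scaled CPM, 181 by the median, 200 without ribosomal RNA in the totals, and 193 to 197 when each heifer was left out. Depth limits members near 0 in an organ, where fold changes rest on few counts.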

Other observations

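The 2 rows of XIST did not keep a fixed proportion. XR_001495594.2 exceeded XR_001495596.2 by a median factor of 11.5 over 34 libraries, with 16.3 as the highest and 1.12 as the lowest. The lowest came from the contralateral upper horn of heifer 11033, the library with the smallest total, where the rows stood at 15.9 and 14.2 CPM; the next lowest factor was 3.14.

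Against XR_003033235.1, 37 members had a residual correlation of -0.4 or lower over the same 34 libraries. The most negative was XR_083597.5 with r = -0.80, followed by XR_083847.6 with -0.74. These values share the libraries and animals of the positive set and carry no test.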
